A study of Mus musculus with 8 samples.

Results

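The pyruvate dehydrogenase complex and its regulators were followed here as 10 genes on mouse muscle arrays: the subunits Pdha1, Pdhb, Dlat, Dld and Pdhx, the kinases Pdk1, Pdk2, Pdk3 and Pdk4, and the phosphatase Pdp1. A probe was taken as a member if it was no control probe and its RefSeq accession belonged to one of these genes, which gave 14 probes of 27235 probes with a gene name and 55681 in all, and 10 genes of 20660. Pdp1 had 3 probes, Pdhb and Dld had 2 each, and the other genes had 1. Each of the 8 two-colour arrays held RNA of the whole muscle of 1 Eif6+/- mouse (Het, Cy5) and 1 wild-type mouse (WT, Cy3), in 4 pairs of gastrocnemius and 4 pairs of tibialis anterior (TA). All mice were male C57BL6 littermates of 8 to 16 weeks on ordinary chow, paired at random. The Eif6+/- mice lack 1 copy of Eif6, a factor of the large ribosomal subunit, in every cell and from birth, so that an effect within muscle cannot be told apart from one that comes from another organ. The value of a spot is the log2 ratio of Eif6+/- over WT after background correction and normalization.

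The complex sits in the mitochondrial matrix and turns pyruvate from glycolysis into acetyl-CoA, which commits carbohydrate carbon to oxidation. Pdha1 and Pdhb form its E1 enzyme, Dlat is E2, Dld is E3, and Pdhx is the protein that anchors E3 to the E2 core. The Pdk kinases phosphorylate the E1 alpha subunit and switch the complex off, Pdp1 removes the phosphate in muscle, and Pdk4 is the kinase gene that fasting and fatty acids are known to induce in this tissue.

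Dye and genotype cannot be told apart on these arrays, because Eif6+/- RNA carried Cy5 on all 8 of them, whereas the methods name Cy3 labelling alone. The same holds for slide row and muscle. The share of probes well above background ran from 38.7% to 48.6% over the 16 channels, and no spot was saturated. Eif6 itself, measured by its brighter probe A_52_P85864, fell by 1.02 ± 0.11 (log2, SD, n = 4) in gastrocnemius and by 1.00 ± 0.17 in TA (limma adjusted p = 0.0239 and 0.0108). The 8 skeletal muscle markers were above background in every group. Of 4 heart markers, Nppa and Nppb were not well above background on any array. Myl7 was well above it in the Eif6+/- channel of 1 array, and Myh6 in both channels of all 8 arrays. In whole muscle, fewer cells of a type and less RNA per cell cannot be told apart.

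In gastrocnemius, Pdhb, Dlat, Pdhx and Pdp1 were higher in Eif6+/- than in WT mice on all 4 arrays, as were 21.4% of genes. No member was lower by the test. Of the 10 members tested, Pdhb, Pdhx and Pdp1 were called at an adjusted p of 0.1 (limma, Benjamini-Hochberg over all kept probes). Beside them, 9.87% of 12601 genes were called higher and 5.54% lower. The median log2 ratio over the 10 members was 0.11, beside 0.02 over all genes tested. The other 7 members lay between -0.31 and 0.20 and did not pass the test.

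Promoter sequences are shown for 3 members: Pdhb and Pdhx, whose log2 ratios ran close to each other in gastrocnemius, and Pdk4, the member whose ratios spread most. They were taken from RefSeq (GRCm38.p6), each from 250 bases before to 50 after the gene's start, on the minus strand: chr14:8172943-8173242 for Pdhb, chr2:103073464-103073763 for Pdhx and chr6:5496229-5496528 for Pdk4. Capitals mark the GC box GGGCGG and the CCAAT box CCAAT on either strand, so that ATTGG is a CCAAT on the other strand.
Pdhb: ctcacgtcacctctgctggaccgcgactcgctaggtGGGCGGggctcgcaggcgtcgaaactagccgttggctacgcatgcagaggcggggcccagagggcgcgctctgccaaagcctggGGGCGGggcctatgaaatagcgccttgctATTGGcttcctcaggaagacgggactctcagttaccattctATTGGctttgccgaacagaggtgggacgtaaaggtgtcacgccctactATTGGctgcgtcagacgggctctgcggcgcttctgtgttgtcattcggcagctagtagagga
Pdhx: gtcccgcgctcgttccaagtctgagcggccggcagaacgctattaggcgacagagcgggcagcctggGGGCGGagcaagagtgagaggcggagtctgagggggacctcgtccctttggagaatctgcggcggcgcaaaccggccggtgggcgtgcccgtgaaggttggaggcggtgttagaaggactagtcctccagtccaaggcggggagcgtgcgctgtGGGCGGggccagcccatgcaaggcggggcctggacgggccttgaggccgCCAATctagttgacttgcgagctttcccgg
Pdk4: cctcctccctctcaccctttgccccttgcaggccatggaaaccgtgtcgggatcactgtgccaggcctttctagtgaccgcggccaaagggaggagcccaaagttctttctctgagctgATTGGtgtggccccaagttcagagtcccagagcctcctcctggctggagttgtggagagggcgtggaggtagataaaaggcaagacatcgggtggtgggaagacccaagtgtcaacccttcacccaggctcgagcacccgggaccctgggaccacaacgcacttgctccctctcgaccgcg
The Pdhb window held 2 GC boxes and 3 CCAAT boxes. The Pdhx window held 2 GC boxes and 1 CCAAT box. The Pdk4 window held 1 CCAAT box and no GC box. RefSeq gave 11 windows for 9 of the members, of which 5 held a GC box and 6 a CCAAT box, beside 35.7% and 37.4% of 32851 promoter windows of the same length. The ETS motif CCGGAAG, the ERR half-site AAGGTCA, the FoxO motif GTAAACA and the cyclic AMP element TGACGTCA were found in no member window on either strand, beside 8.86%, 4.72%, 3.65% and 1.79% of all windows. These are matches of letters in a window and say nothing of binding.

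Pdhb, the E1 beta subunit, gave the largest increase among the members. Its brighter probe, A_55_P1953972, had log2 ratios of 0.37, 0.46, 0.60 and 0.12 on gastrocnemius arrays 1 to 4. All 4 lay above 0, with pair 4 lowest. The mean was 0.39 ± 0.20 (SD, n = 4), a 1.31-fold higher level with a standard error of 0.093 and an adjusted p of 0.0579. In TA the same probe gave 0.36, 0.53, 0.37 and -0.11, so that 3 arrays were high and pair 4 was below 0. The TA mean of 0.29 ± 0.28 missed the threshold (limma adjusted p = 0.12) and passed it without TA pair 4, at 0.42 (adjusted p = 0.0395). The second Pdhb probe, A_55_P1969776, gave smaller ratios on every array, with means of 0.18 in gastrocnemius (adjusted p = 0.259) and 0.06 in TA (adjusted p = 0.759), and neither passed the test.

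Pdha1, the E1 alpha subunit that carries the phosphorylated serines and pairs with Pdhb in the enzyme, did not move with it. Its ratios were 0.45, -0.30, 0.01 and -0.03 in gastrocnemius and -0.41, 0.00, -0.11 and -0.11 in TA. High and low arrays fell on both sides of 0 in gastrocnemius, and 3 of the 4 TA arrays were below 0. The means were 0.03 ± 0.31 and -0.16 ± 0.18 (limma adjusted p = 0.887 and 0.255), with 95% confidence intervals of -0.25 to 0.31 and -0.35 to 0.03. The Pdhb ratio was above the Pdha1 ratio on 7 of the 8 arrays, with gaps from -0.08 to 0.77. The median absolute gap was 0.51 between Pdhb and Pdha1 and 0.09 between Pdhb and Pdhx, as a description over 8 arrays and single probes. These gaps use the brighter Pdhb probe, which itself lay 0.13 to 0.36 above the second Pdhb probe on the same arrays.

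Pdhx, the E3-binding protein, followed Pdhb in gastrocnemius. Its probe gave 0.37, 0.34, 0.60 and 0.11 there, again all above 0 and lowest in pair 4. The mean of 0.35 ± 0.20 was a 1.28-fold increase (limma adjusted p = 0.0695). In TA the values were 0.16, 0.34, 0.01 and -0.17, with a mean of 0.08 ± 0.22 that did not pass the test (adjusted p = 0.579). The difference between the muscles, 0.27 with a 95% interval of -0.03 to 0.57, had an adjusted p of 0.655.

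Pdp1, the catalytic subunit of the phosphatase that reactivates the complex, was the third gene called in gastrocnemius. Its brightest probe, A_55_P2033055, gave 0.22, 0.33, 0.50 and 0.09, with no array below 0. The mean was 0.28 ± 0.17, a 1.22-fold increase with an adjusted p of 0.0969 (limma), just inside the threshold. Its other probes had means of 0.15 (A_55_P2269497, adjusted p = 0.275) and -0.10 (A_55_P2162394, adjusted p = 0.548), so that 1 of the 3 probes pointed the other way. In TA the brightest probe gave 0.40, 0.01, 0.15 and 0.09, all above 0, with a mean of 0.16 ± 0.17 that missed the test (adjusted p = 0.234). The other probes had TA means of 0.09 and -0.07 and were not called.

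Over the alternatives in processing, the log2 values of these 3 genes in gastrocnemius stayed above 0, between 0.32 and 0.48 for Pdhb, 0.27 and 0.44 for Pdhx, and 0.21 and 0.35 for Pdp1. Their calls did not hold as well: Pdhb was called in 11 of 16 alternatives, Pdhx in 10 and Pdp1 in 7. Pdhb was the single member called without pair 1, beside 14% of genes, and no member was called without pair 2 (10.7% of genes), 3 or 4. Without pair 3 or pair 4, none of the 12601 genes tested reached the threshold in limma, while 2424 and 2648 had an unadjusted p under 0.05. At an adjusted p of 0.05 no member was called, beside 4.97% of all genes.

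Markers of fibre types and other cells were followed in gastrocnemius too. Of 7 adipocyte genes, Adipoq (-0.64) and Cfd (-0.89) were called lower in Eif6+/- mice (summed normalized intensity 39222 to 84512, against 66725 to 134120 in WT, where Lep was not above background). Of 5 leukocyte genes tested, Cd74 was lower (-1.10; 3827 to 4313 against 4267 to 11966, with S100a8 not above background in Eif6+/- mice). Among 8 muscle genes, Ckm was called lower (-0.37) and Myh1 higher (0.96), with a list median of 0.44 (779615 to 873643 against 599225 to 786354). Of 9 fast fibre genes, Myh1 was called higher (0.96) and Actn3 (-0.36) and Atp2a1 (-0.72) lower (1061430 to 1118990 against 964036 to 1148160). None of the 9 slow fibre genes was called by limma (35245 to 144311 against 18950 to 161897), and pair 1 was the highest array for 8 of them, with log2 ratios from 1.14 for Tnni1 to 5.01 for Myh7, while Tpm3 gave -0.23 there. No other gastrocnemius array was above 0.74 for these genes. Their part in the Pdhb, Pdhx and Pdp1 ratios was not tested.

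**Figure D1:**
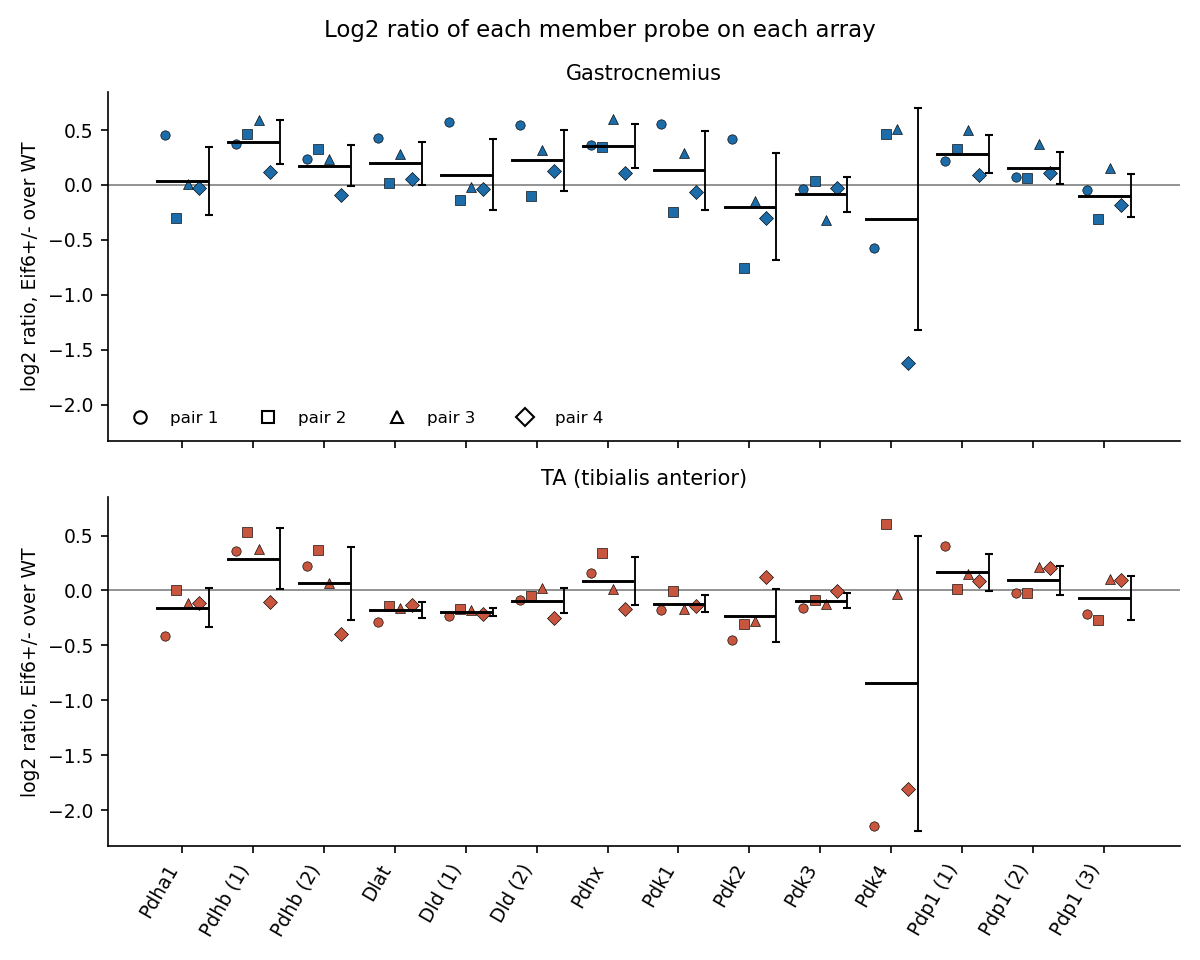
Log2 ratio of Eif6+/- over WT (y axis) for each of the 14 member probes (x axis; where a gene has several, 1 is the brightest) on the 4 gastrocnemius arrays (blue) and the 4 TA arrays (red). The symbol gives the pair, the black line the mean and the bar beside it 1 SD; Pdk3 in TA was not well above background on most arrays. The brightest Pdhb, Pdhx and Pdp1 probes are above 0 on all gastrocnemius arrays, as are the Dlat probe and Pdp1 probe A_55_P2269497. Pdk4 reaches -2.15.

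**Figure D2:**
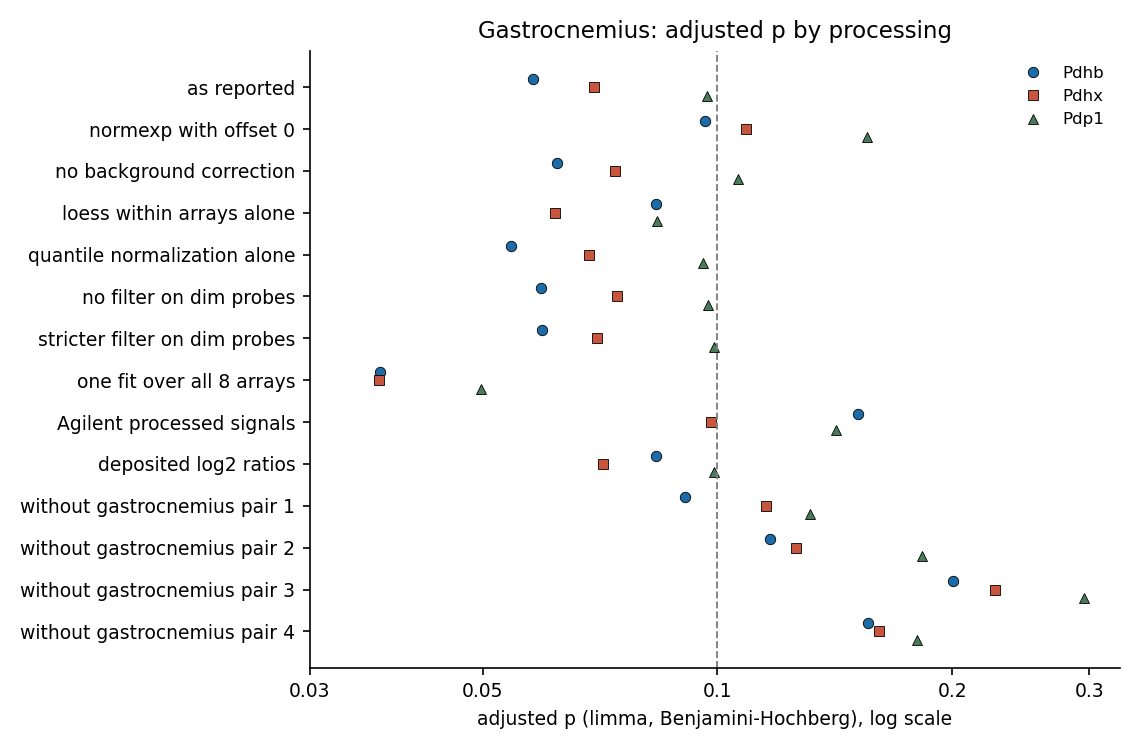
Adjusted p (x axis, log scale) of the gastrocnemius log2 ratio of the brightest Pdhb, Pdhx and Pdp1 probes under each way of processing (y axis), with the threshold of 0.1 as a dashed line. SAM, the median over probes and the stricter threshold are not drawn. Points left of the line are called, and leaving out pair 3 moves all 3 genes well to the right of it.

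Dlat and Dld, the E2 and E3 enzymes, were not called in either muscle by limma as reported. Dlat gave 0.43, 0.01, 0.29 and 0.06 in gastrocnemius and -0.29, -0.14, -0.16 and -0.13 in TA. Its ratios were above 0 on all 4 gastrocnemius arrays and below 0 on all 4 TA arrays, a pattern that 51 of 12194 genes (0.418%) had and that 27 genes (0.221%) had in reverse. The means of 0.20 ± 0.20 and -0.18 ± 0.07 did not pass the test (limma adjusted p = 0.224 and 0.14). The difference between the muscles was 0.37, with a 95% interval of 0.13 to 0.62, and its p of 0.00658 (limma) became 0.636 after adjustment over all kept probes.

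Dld, which the sister 2-oxo acid dehydrogenases share, was the most even member in TA, with log2 ratios of -0.23, -0.17, -0.17 and -0.22 for its brighter probe, A_51_P184284. The TA mean of -0.20 ± 0.03 lay just outside the threshold (limma adjusted p = 0.101), and 1.01% of genes had a smaller SD there. It was called lower under loess alone (adjusted p = 0.0904) and without a filter on dim probes (0.0759), and by SAM at an FDR of 0.1. In gastrocnemius the same probe gave 0.57, -0.14, -0.02 and -0.03, so that pair 1 alone was above 0. That mean of 0.09 ± 0.32 (adjusted p = 0.661) became -0.06 without pair 1. The second Dld probe, A_55_P2120807, had means of 0.22 and -0.09 in the muscles, neither called.

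Among the kinases, none was called by limma in either muscle. Pdk1 gave 0.56, -0.25, 0.29 and -0.07 in gastrocnemius, on both sides of 0, and -0.18, -0.01, -0.17 and -0.14 in TA, all below 0. Its means were 0.13 ± 0.36 and -0.12 ± 0.08 (limma adjusted p = 0.567 and 0.282). Pdk2, the kinase found in most tissues, gave 0.42, -0.76, -0.15 and -0.30 in gastrocnemius and -0.45, -0.30, -0.28 and 0.12 in TA. It was below 0 on 3 of 4 arrays of each muscle, with 1 array of each on the other side. Its means were -0.20 ± 0.48 and -0.23 ± 0.24 (adjusted p = 0.496 and 0.171), and the TA value passed the test without pair 4, at -0.34 (adjusted p = 0.0533). Pdk3 was close to background. Its Eif6+/- channel was well above background on 4 gastrocnemius arrays and 1 TA array, and its WT channel on 2 gastrocnemius arrays and none in TA. Its gastrocnemius mean of -0.09 ± 0.16 was not called (adjusted p = 0.554), and it was not tested in TA.

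Pdk4 spread further than any other member. Its log2 ratios were -0.58, 0.46, 0.51 and -1.62 in gastrocnemius and -2.15, 0.60, -0.03 and -1.81 in TA. On 3 of the 8 arrays the Eif6+/- mouse had the higher level, and on 3 others the ratio lay between -2.15 and -1.62. The SD of 1.01 in gastrocnemius was larger than that of 99.3% of genes, and the SD of 1.34 in TA larger than that of 99.8%, beside median SDs over all genes of 0.17 and 0.15. The means of -0.31 and -0.85 were therefore not called (limma adjusted p = 0.59 and 0.211), with 95% intervals of -1.08 to 0.47 and -1.76 to 0.07. Without pair 4 the gastrocnemius mean was 0.13, and the TA mean ran from -1.33 without pair 2 to -0.41 without pair 1. SAM, the permutation test that the methods name, called the TA decrease at an FDR of 0.1, beside 21% of genes, and not at 0.05 (7.66% of genes).

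The levels behind these ratios differed in both genotypes. WT gastrocnemius had normalized log2 intensities of 13.28, 12.79, 12.81 and 14.21 for Pdk4, and WT TA had 14.70, 13.10, 13.37 and 14.43. The 3 highest WT levels, 14.21, 14.43 and 14.70, belong to the arrays with the 3 lowest ratios, which share those WT levels. Eif6+/- gastrocnemius had 12.71, 13.25, 13.31 and 12.59, and Eif6+/- TA had 12.55, 13.71, 13.33 and 12.62. The Eif6+/- levels spanned 1.16 over the 8 muscles and the WT levels 1.91, and the ranges overlapped.

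The gene whose 8 log2 ratios lay nearest to those of Pdk4, out of 12193 others, was Ucp3, a mitochondrial uncoupling protein of muscle. Its mean absolute difference from Pdk4 was 0.473, beside a median of 0.997 over all genes. Ucp3 gave -0.49, 0.33, 0.24 and -0.82 in gastrocnemius and -1.11, 0.43, -0.24 and -0.73 in TA, with the same sign as Pdk4 on every array. It was picked by these same 8 ratios, which favours a shared sign. It was not called in either muscle (limma adjusted p = 0.573 and 0.233). The next 3 genes were Ctla2b, Tm6sf1 and Actc1, at 0.650 to 0.691. For Pdhb the nearest were Mad2l1bp, Trim16, Txnrd3, Chchd3 and Agap2, at 0.0846 to 0.0975, beside a median of 0.375.

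**Figure D3:**
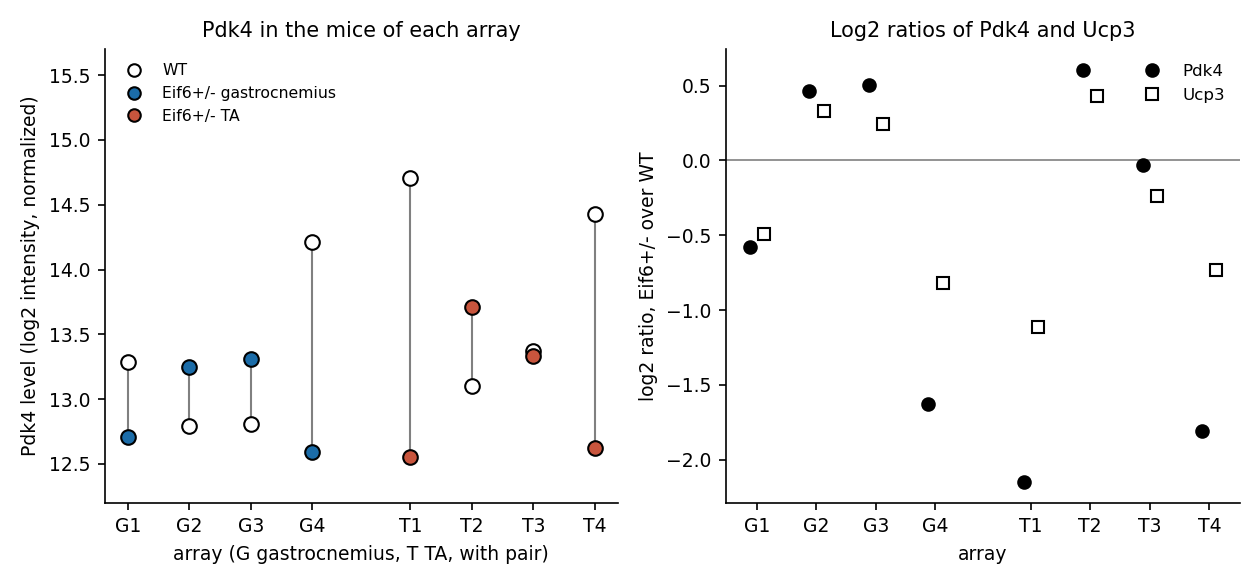
Left, the Pdk4 level (y axis, normalized log2 intensity) of the WT mouse (open circle) and the Eif6+/- mouse (filled) of each array, joined by a line. Right, the log2 ratio of Eif6+/- over WT of Pdk4 (filled circle) and Ucp3 (open square) on the same arrays; G is gastrocnemius and T is TA, with the pair number. Both genes are far below 0 on the arrays G4, T1 and T4 and above 0 on G2, G3 and T2. Ucp3 was picked for its nearness to Pdk4 on these arrays.

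In TA no member was called by limma among the 9 tested, beside 16.3% of 12375 genes in either direction. At an unadjusted p under 0.05 there were 4, beside 29.1% of all genes, and SAM at an FDR of 0.1 called 3, beside 21%: Pdhb higher, Dld and Pdk4 lower. The median over the 9 members was -0.16, beside 0.02 over all genes tested. Dlat, Dld and Pdk1 were below 0 on all 4 TA arrays, beside 15.6% of genes. Leaving out TA pair 4 gave 2 calls, Pdhb higher and Pdk2 lower, beside 16.3% of genes in that setting.

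Markers of other cells and of fibre types moved in TA too. In Eif6+/- mice the red blood cell genes Hbb-bs (-1.30), Hba-a1 (-0.72), Alas2 (-0.67) and Hbb-bt (-0.64) were called lower, 4 of 5 (summed normalized intensity 10653 to 18279, against 22481 to 27910 in WT). Of 9 slow fibre genes, Tnnt1 (-0.90), Tnni1 (-0.80), Myoz2 (-0.53) and Tnnc1 (-0.41) were lower (13909 to 28343 against 13614 to 43371). Of 9 fast fibre genes, Myh4 (0.80) and Tnnc2 (0.57) were higher and Atp2a1 (-0.60) lower (1052640 to 1174000 against 921115 to 1116790). Of 7 adipocyte genes, Retn (0.65), Cidec (0.60) and Plin1 (0.51) were higher (51037 to 65435 against 46093 to 57542, with Lep not above background). S100b (-0.35) and Mbp (-0.21), of nerve and Schwann cells, were lower. The leukocyte gene S100a9 (-1.61), the endothelial gene Pecam1 (-0.32) and the muscle gene Mylpf (-0.34) were lower as well. Their part in the member ratios was not tested.

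The genotype difference was compared between the muscles in a single model over all 8 arrays. No member passed among the 9 tested, nor did any of the 12194 genes (0% called). With no adjustment, 996 genes (8.17%), Dlat among the members, had an unadjusted p under 0.05. All 9 tested members had a higher log2 ratio in gastrocnemius than in TA, beside 52.3% of all genes. These 9 differences ran from 0.03 for Pdk2 to 0.54 for Pdk4, with a median of 0.26, and share the same 8 arrays.

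The levels were also compared between the muscles. In WT mice 5 of the 9 members tested were lower in gastrocnemius than in TA, the subunits Pdhb, Dlat, Dld and Pdhx and the phosphatase Pdp1, and none was higher, against 14.1% of 11826 genes called lower. The same 5 were called whichever single array was left out. WT Pdhb levels were 13.94, 13.76, 13.79 and 14.16 in gastrocnemius and 14.57, 14.48, 14.47 and 14.78 in TA, with no overlap. That is a difference of -0.66 (limma adjusted p = 0.00804), or 0.631 of the TA level. Both of its probes were called, the second with a difference of -0.81 (adjusted p = 0.00748).

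Dlat, Dld and Pdhx had differences of like size in WT mice, and Pdha1 had a smaller one that was not called. Dlat levels were 11.337, 11.538, 11.513 and 11.745 in gastrocnemius and 12.298, 12.020, 12.002 and 12.175 in TA, a difference of -0.59 (limma adjusted p = 0.0101). Dld differed by -0.61 (adjusted p = 0.0184) and -0.52 by its second probe, and Pdhx by -0.56 (adjusted p = 0.0139). Pdha1 differed by -0.34 (adjusted p = 0.125). None of these 4 subunits overlapped between the muscles. Levels of the 4 gastrocnemius arrays all lay below those of TA for 13.7% of genes in WT and for 11.7% in Eif6+/- mice.

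The regulators differed less evenly. Pdp1 was lower by -0.37 in WT gastrocnemius (adjusted p = 0.0379, limma), and of its other probes A_55_P2162394 was called (-0.32, adjusted p = 0.0872) and A_55_P2269497 was not (-0.20, 0.218). Pdk1 (-0.25), Pdk2 (-0.02) and Pdk4 (-0.63, with an interval of -1.52 to 0.27) overlapped between the muscles and were not called.

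In Eif6+/- mice 4 of the 10 members tested were lower in gastrocnemius than in TA, Pdhb, Dld, Pdhx and Pdp1, against 9.98% of 12600 genes called lower. Pdhb levels were 14.32, 14.22, 14.38 and 14.28 in gastrocnemius and 14.92, 15.01, 14.84 and 14.68 in TA, again without overlap, a difference of -0.56 (limma adjusted p = 0.00534). Dld differed by -0.31 (adjusted p = 0.0503), Pdhx by -0.30 (0.0877) and Pdp1 by -0.25 (0.0618). The second Pdhb probe was called (-0.69, adjusted p = 0.00756) and the second Dld probe was not (-0.21, 0.206). Of the other Pdp1 probes, A_55_P2162394 was called (-0.35, 0.0235) and A_55_P2269497 was not (-0.14, 0.209). Dlat, called in WT mice, differed by -0.22 here (adjusted p = 0.117). Pdhb was called whichever single array was left out. The count of called members fell to 2 without gastrocnemius pair 1, 2 or 4 or TA pair 2, and to 1 without TA pair 1, while the share of all genes called fell from 16.7% to between 7.75% and 9.69% in these settings. For the 9 members tested in both genotypes the difference was higher in Eif6+/- than in WT mice, that is nearer to 0 or above it. This is the same quantity as the difference between the genotype ratios above, which passed the test for none of them.

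**Figure D4:**
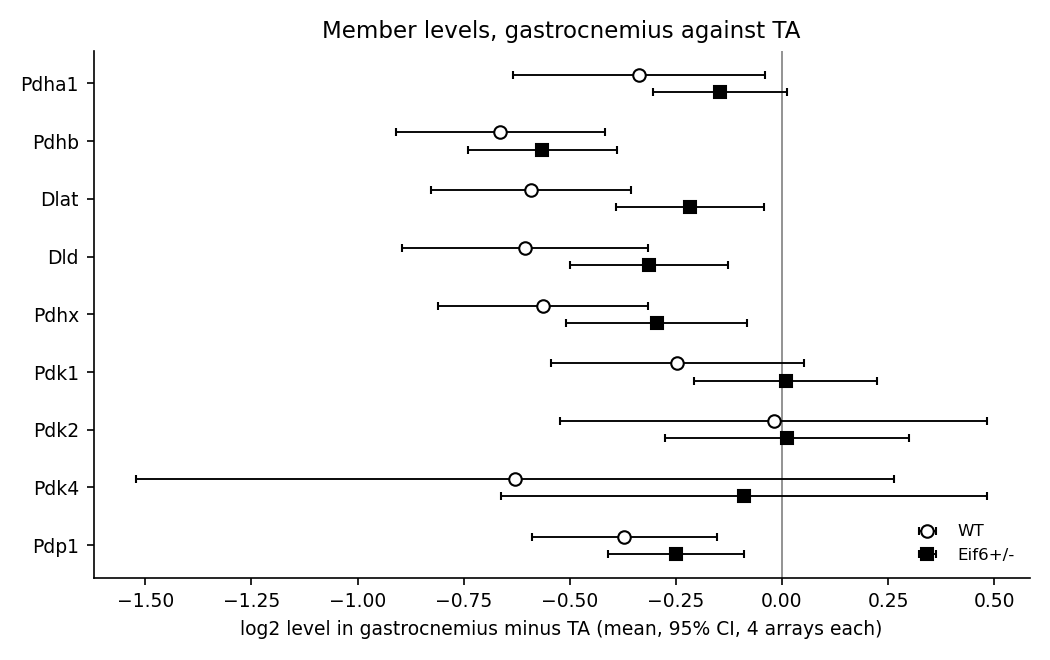
Difference of the log2 level between gastrocnemius and TA (x axis; below 0 is lower in gastrocnemius) for 9 members (y axis) in WT (open circle) and Eif6+/- mice (filled square), as the mean with its 95% confidence interval over 4 arrays per muscle. Pdk3, close to background, is left out. Pdhb, Dlat, Dld, Pdhx and Pdp1 lie below 0 in both genotypes, and the Pdk4 interval is the widest.

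Fibre and fat markers moved with this comparison. In WT mice 6 of 9 slow fibre genes were called higher in gastrocnemius (median 2.09, summed normalized intensity 18950 to 161897 against 13614 to 43371 in TA), as were 6 of 7 adipocyte genes (median 2.29, 66725 to 134120 against 46093 to 57542, with Lep not above background) and 4 of 6 fibroblast genes (111131 to 285459 against 39608 to 94514). Of 9 fast fibre genes, Myh1 was lower (-1.45) and none was higher (964036 to 1148160 against 921115 to 1116790). In Eif6+/- mice 8 of 9 slow fibre genes, 4 of 7 adipocyte genes and 1 of 6 fibroblast genes were called higher in gastrocnemius (the adipocyte gene Fabp4 was lower, -0.28), as were 5 of 5 nerve and Schwann cell genes (median 0.56, summed normalized intensity 2251 to 4568 against 1957 to 2156 in TA) and 2 of 4 red blood cell genes. In WT mice 1 of the 5 nerve genes and none of the 4 red blood cell genes were called higher, and the heart gene Myh6 was called lower (-1.54). In Eif6+/- mice Myh1 (-0.53), the 1 called of 9 fast fibre genes, was lower in gastrocnemius. Cdh5 (-0.57) was lower there and was the 1 called of 4 endothelial genes (list median -0.02, 2412 to 3041 against 2572 to 3121). Lyz2 (0.40) was higher there and was the 1 called of 6 leukocyte genes tested (list median 0.04, 3827 to 4313 against 2617 to 5245). Their part in the member differences was not tested.

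Genes on either side of the complex were followed as lists, beside 15.4% of all genes called in gastrocnemius and 16.3% in TA, in either direction. Of the 14 genes of mitochondrial pyruvate entry and the other fates of pyruvate, 2 rose and 3 fell in gastrocnemius, and 3 rose and 3 fell in TA (medians 0.08 and 0.02). Mpc1, a subunit of the carrier that brings pyruvate into mitochondria, rose on every array, by 0.64 in gastrocnemius and 0.34 in TA (limma adjusted p = 0.0321 and 0.0482). Its partner Mpc2 had means of 0.12 and -0.10 and was not called. Ldha, the lactate dehydrogenase subunit of fast muscle, rose by 0.46 and 0.65 (adjusted p = 0.0994 and 0.0118), and Ldhb, that of oxidative muscle, fell by 0.86 in TA (adjusted p = 0.0397) and gave 0.72 in gastrocnemius, with 3.10 on pair 1, not called (adjusted p = 0.447). Pkm, the muscle pyruvate kinase, fell by 0.50 and 0.31 (adjusted p = 0.0286 and 0.0908). Pcx, pyruvate carboxylase, fell by 0.37 in gastrocnemius, and so did Gpt2, a mitochondrial alanine aminotransferase, by 0.35. Gpt, the cytosolic one, fell by 0.21 in TA, where the malic enzyme Me1 rose by 0.41.

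Of 13 tested genes for lipoate and thiamine, the cofactors of E2 and E1, 3 rose and none fell in gastrocnemius and 1 fell in TA (medians 0.25 and 0.02). The 3 were Ndufab1, the mitochondrial acyl carrier protein (0.35), the thiamine transporter Slc19a2 (0.34) and Mcat, of mitochondrial fatty acid synthesis (0.31). The one that fell in TA was Mecr (-0.39), of the same synthesis. In WT mice 8 of these 13 genes were lower in gastrocnemius than in TA (median -0.29), beside 14.1% of all genes, and in Eif6+/- mice 3 of 13 were (median -0.15), beside 9.98%. Of the sister complexes, 8 genes were tested. In gastrocnemius Bckdhb (0.66) and Gcsh (0.26) rose and the kinase Bckdk fell (-0.47). In TA Bckdhb rose (0.35), and Bckdk (-0.57), Bckdha (-0.48) and Ogdh (-0.31) fell. Pdp2, the second phosphatase isoform, fell by 0.38 in TA (limma adjusted p = 0.0482) and gave -0.22 in gastrocnemius, not called, and Pdpr, the regulatory subunit of the phosphatase, was called in neither.

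Of 28 tested genes that respond to fasting, PPAR or FoxO in muscle, 4 rose and 1 fell in gastrocnemius and 3 rose and 3 fell in TA (medians -0.03 and -0.13), near the shares of all genes. Klf15, Per1 and Ddit4 rose in both muscles, by 0.62, 0.53 and 0.55 in gastrocnemius and by 0.47, 0.59 and 0.46 in TA, and Cebpb rose by 0.53 in gastrocnemius. Ucp2 fell there by 0.64, and Hadha (-0.57), Foxo1 (-0.25) and Cdkn1a (-0.24) fell in TA. Klf15 gave 1.03, 0.18, 0.10 and 0.58 on TA arrays 1 to 4. Per1 was highest on pair 1 in both muscles, with 1.09, 0.28, 0.28 and 0.46 in gastrocnemius and 1.38, 0.27, 0.33 and 0.40 in TA. Of 10 tested factors known to act on the Pdk4 gene, Ppara (0.97, adjusted p = 0.098) and Ppargc1a (0.33, adjusted p = 0.0530) rose in gastrocnemius and Foxo1 fell in TA by limma. The Ppara ratios were uneven, at 2.10, 0.08, 1.25 and 0.43 on gastrocnemius arrays 1 to 4. None of the lists had a gene called in the difference between the muscles.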

How the data were processed

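RNA of 1 Eif6+/- and 1 WT mouse per array was labelled and hybridised to 8 two-colour Agilent SurePrint G3 mouse arrays. The authors deposited spot intensities as scanned with Feature Extraction 10.5.1.1, its processed intensities, and its log10 ratios of Cy5 over Cy3. They also deposited a table of log2 ratios, set here against each array's own spots (r between 0.999963 and 0.999996 and slope between 0.999895 and 1.00039 against loess-normalized ratios of uncorrected intensities, Cy5 over Cy3). Its column medians ran from -0.00441 to 0.00375, which settles its scale (log2), centring and direction.

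Median intensities were corrected with normexp (limma 3.58.1, R 4.3.3; offset 50), normalized by loess within arrays and by quantiles over the 16 channels. Such normalization assumes that most genes do not change, and a low offset widens the ratios of dim probes. Control and outlier spots were left out, and the spots of a probe were averaged. Ratios were tested for probes that stood well above background in either channel on each of the 4 arrays of a muscle, and levels for probes that did so in that channel on all 4 arrays of either muscle. Log2 ratios, their difference between muscles and log2 levels were tested with lmFit and eBayes, with Benjamini-Hochberg adjustment over all kept probes and a threshold of 0.1, the FDR that the results use. A gene was counted by its brightest probe, and the other member probes of Pdhb, Dld and Pdp1 are given beside it. SAM, which the methods name, was an alternative, as were other corrections, normalizations, filters and arrays left out. Symbols came from RefSeq (GRCm38.p6) by accession, for 27235 of 28685 probes with one. P-values measure the spread between 4 pairs of mice, and their number limits the precision. Members and lists were chosen with earlier results of these data known. Of the lists, the genes called between genotypes are named, at most 6 per list and muscle by size, and some are not reported here. The labels do not say that a pair number means the same mice in both muscles. The file headers name mm9, and no probe coordinates were used.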

Additional observations from a re-analysis of the deposited data

Results flagged for a closer look

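In 84 groups of 4 values, 4 had 1 value far from the other 3 by Dixon's test, where chance flags about 1 in 20 groups. The Eif6+/- level of Dlat in gastrocnemius pair 2, 11.55, was below the others (gap over range 0.860). The log2 ratio of Dld probe A_51_P184284 in gastrocnemius pair 1, 0.57, was above the others (0.838). The WT level of Pdk1 in TA pair 1, 8.37, was above the others (0.914). The log2 ratio of Pdp1 probe A_55_P2269497 in gastrocnemius pair 3, 0.37, was above the others (0.849). The cause was not tested.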

How the results depend on the processing

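Of the counts of called members, the 3 of gastrocnemius (15.4% of all genes) became 1 with normexp offset 0 (Pdhb; 11.5% of genes), with Agilent's processed signals (Pdhx; 9.55%) and with the median over probes (Pdhx; 11.8%), 0 at an adjusted p of 0.05, and 0 to 1 with a pair left out. The 0 of TA became 1 (Dld) with loess alone (17.1% of genes) and without a filter on dim probes (13.2%), 3 by SAM at an FDR of 0.1 (21%), and 0 to 2 with a pair left out. The count for the difference between muscles was 0 in every alternative run. The 5 in WT mice were 4 to 6 in every alternative and 5 with any array left out. The 4 in Eif6+/- mice became 1 at an adjusted p of 0.05 (8.49% of genes), 1 to 4 with an array left out, 3 to 5 in the other settings and 6 with Agilent's signals (Pdha1 and Dlat added; 31% of genes). Agilent's signals moved the median of all genes from -0.03 to -0.14 for WT gastrocnemius over TA and called 22.2% of genes lower (14.1% before), and in Eif6+/- mice 24.3% (9.98% before). Such a shift adds to each muscle difference. The cause was not tested.

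Values that changed sign had not been called. Under loess alone and in the deposited ratios, Pdha1 in gastrocnemius was -0.0149 and -0.0139, and the second Pdhb probe in TA -0.0355 and -0.0259. Agilent's signals gave 0.0522 for Pdk3 in gastrocnemius, -0.0174 for Pdp1 probe A_55_P2269497 in TA, and 0.0207 for Pdp1 probe A_55_P2162394 between muscles. In Eif6+/- mice, gastrocnemius over TA, Pdk1 was -0.00961 with loess and Aquantile, -0.00102 with quantiles alone and -0.0857 with Agilent's signals, and Pdk2 was -0.0152 with loess and Aquantile and -0.17 with Agilent's signals. With an array left out, ranges that crossed 0 in gastrocnemius were -0.11 to 0.14 for Pdha1, -0.0639 to 0.17 for Dld (A_51_P184284), -0.00953 to 0.26 for Pdk1 and -0.58 to 0.13 for Pdk4. In TA they were -0.0374 to 0.22 for the second Pdhb probe and -0.000742 to 0.17 for Pdhx. Between muscles they were -0.17 to 0.22 for Pdk2, -0.0327 to 0.19 and -0.0417 to 0.21 for the Pdhb probes, -0.11 to 0.0463 for Pdp1 probe A_55_P2162394 and -0.00971 to 0.10 for A_55_P2269497. For WT gastrocnemius over TA the range was -0.20 to 0.18 for Pdk2. For Eif6+/- gastrocnemius over TA the ranges were -0.0625 to 0.0775 for Pdk1, -0.14 to 0.11 for Pdk2 and -0.26 to 0.13 for Pdk4.

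Deviations of same-numbered arrays in the muscles had r of -0.145, 0.0186, -0.356 and 0.0895 for the log2 ratio (22757 probes), -0.376 to 0.192 for WT levels and 0.0153 to 0.187 for Eif6+/- levels. On none of these scales was r above 0.1 for every pair, so that the numbers were not used as pairs. With the pair number as a replicate block, 0 members were called in the difference between muscles, beside 0% of genes, 6 in WT mice (Pdk4 added; 16.3% of genes) and 4 in Eif6+/- mice (Dlat in place of Pdhx; 18.2%). Signal over background limits Pdk3, and 4 pairs limit changes of the size of Pdp1.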
